A study of Papio anubis with 25 samples.

Results

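The urea cycle genes were examined across liver, pancreas and the 3 major salivary glands of olive baboons (Papio anubis). The 8 genes were taken by their symbols from a deposited table of gene abundances: NAGS, CPS1, SLC25A15, OTC, ASS1, ASL, ARG1 and ARG2. All 8 were found among the 21287 genes of the table, each in 1 row. RNA from 5 animals was sequenced, with 1 library from each of 5 tissues of each animal, 25 libraries in all. The groups were liver, pancreas, parotid gland, submandibular gland and sublingual gland, with 5 libraries in each. The animals received no treatment named in the labels, baboons 1 to 4 were female, baboon 5 was male, and their ages and strain are not given in the sources used here. Tissue had been flash frozen, the gland samples came from the left side, and RNA came from a few thin sections of each piece, so a library holds whatever cells lay in those sections. The series was made to compare amylase expression between salivary glands, pancreas and liver, and the urea cycle genes are outside that question.

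The urea cycle turns ammonia released by amino acid breakdown into urea, which the kidney excretes. It starts in the mitochondria of periportal hepatocytes, where NAGS makes the activator of CPS1, CPS1 fixes ammonia as carbamoyl phosphate, and OTC joins this to ornithine brought in by the carrier SLC25A15. The citrulline so formed leaves for the cytosol, where ASS1 adds aspartate, ASL releases fumarate and arginine, and ARG1 splits arginine into urea and ornithine. ARG2 is a mitochondrial arginase of many tissues outside the liver and is not needed for the hepatic cycle. The full cycle is known from the liver, while ASS1, ASL and the arginases also serve the making and use of arginine elsewhere.

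Values were TPM, the share of a gene in the transcripts of its library after correction for transcript length, so levels of different genes can be set side by side on this scale. Read numbers behind the libraries are unknown, and errors are standard deviations (SD) over 5 animals. The liver and pancreas labels matched their markers. The sum of 8 hepatocyte markers was 45050 to 81070 TPM in liver and at most 1227 TPM in any other library. The sum of 5 acinar markers was 63650 to 126400 TPM in pancreas and at most 1808 TPM elsewhere. Gland libraries were less uniform, and in 4 of them the salivary water channel AQP5 did not exceed its highest liver value of 3.90 TPM. These were parotid of baboons 2 and 5 and sublingual gland of baboons 2 and 4. AQP5 is 1 of 4 salivary acinar markers listed, with ZG16B, PIP and OPRPN, and their sum did not always follow it. In parotid the sum was 1065, 1335, 1293, 947 and 3151 TPM in baboons 1 to 5. That overlapped liver (290 to 2556 TPM) and pancreas (486 to 2617 TPM). In sublingual gland it was 443 TPM in baboon 2 and 3298 TPM in baboon 4, against up to 278800 TPM. In submandibular gland it was 868 TPM in baboon 2, against 12300 to 14540 TPM in the other animals. AQP5 was at 5.40 TPM in that library of baboon 2, so it is not among the 4 low in AQP5. The sum of the keratins KRT13 and KRT4, markers of stratified epithelium, was 74570 and 17850 TPM in sublingual gland of baboons 1 and 4, and at most 475 TPM in the other 23. The sublingual library of baboon 2 held 46190 TPM of the skeletal muscle genes ACTA1 and CKM, against at most 359 TPM in any other library.

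The 8 genes together took 1440 ± 329 TPM of the liver libraries (SD, n = 5). The sums in liver were 1361, 1406, 1950, 1033 and 1450 TPM in baboons 1 to 5. In pancreas the sum was 25.0 to 44.6 TPM, in parotid 21.7 to 44.1 TPM and in submandibular gland 19.3 to 50.9 TPM, so every liver library lay far above all libraries of these tissues. In sublingual gland the sums were 815, 23.7, 48.5, 988 and 64.1 TPM, and the 2 high libraries, those of baboons 1 and 4, owed most of their sums to ARG1. In bulk tissue, fewer cells of a type and less RNA per cell cannot be told apart.

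A limma model on log2(TPM + 1) was fitted to the 14991 genes that averaged 1 TPM or more in some tissue, with tissue and animal as terms. Calls required an adjusted p (Benjamini-Hochberg) below 0.05 together with a log2 fold change of 1 or more in either direction. All 8 genes passed the filter, NAGS through its liver level alone. Against pancreas, 7 of the 8 were called higher in liver, where 14.6% of all genes tested were called in that direction. Against parotid, 7 of 8 were called higher in liver (10.9% of all genes), and against submandibular gland also 7 of 8 (13.9%). Against sublingual gland, 6 of 8 were called higher in liver (9.52% of all genes). NAGS, admitted by its liver level, had to differ, and of the other 7 genes 6, 6, 6 and 5 were called higher in liver in the same order. Without the 4 gland libraries low in AQP5 the count was 7 of 8 in each comparison, and so it was without the sublingual libraries of baboons 1 and 4. None of the 8 was called lower in liver than any other tissue, where 2.86%, 2.84%, 2.61% and 5.93% of all genes were called lower than in pancreas, parotid, submandibular and sublingual gland, and ARG2 was called in neither direction. The median log2 fold change of the 8 genes was 4.52 against pancreas, 4.94 against parotid, 4.97 against submandibular gland and 4.20 against sublingual gland. Over all genes tested the medians were 0.44, -0.01, 0.27 and -0.17 in the same order. Of the 8 genes, 6, NAGS among them, had every liver library above all 20 others (5.08% of all genes tested did), and ARG1 and ARG2 did not.

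**Figure D1:**
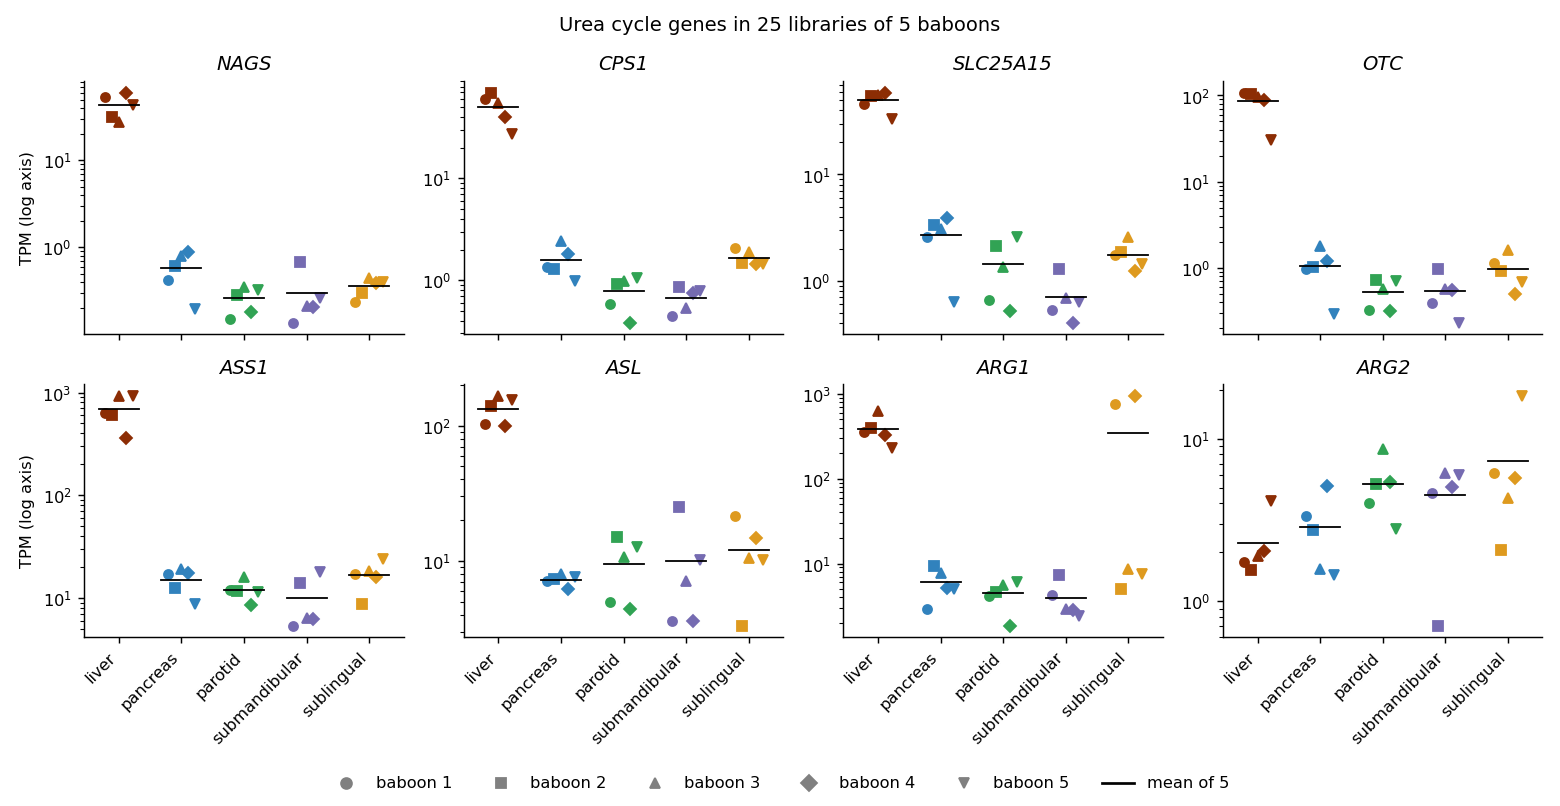
TPM (log axis) of the 8 urea cycle genes in each of the 25 libraries, by tissue, with a symbol for each baboon and a line at the mean of 5. For 6 genes every liver point lies above all other points. ARG1 has 2 sublingual points above the highest liver point of 625 TPM, and the ARG2 points of all tissues overlap.

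The mitochondrial enzymes that start the cycle were present in every liver and near the bottom of the scale elsewhere. NAGS was at 54.0, 31.2, 27.7, 60.3 and 43.9 TPM in the livers of baboons 1 to 5. It was at 0.425, 0.609, 0.801, 0.895 and 0.194 TPM in pancreas. Its 15 gland libraries lay between 0.136 and 0.673 TPM. The liver level varied about 2.18-fold among animals, and no library outside the liver reached 1 TPM. The log2 fold change of NAGS was 4.77 against pancreas (SE 0.27) and 4.98 to 5.08 against the glands. These are given as a description, since only its liver level brought NAGS into the fit.

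CPS1, the ammonia-fixing enzyme of hepatocyte mitochondria, was at 60.1, 69.8, 55.6, 39.7 and 27.4 TPM in liver. In pancreas it was at 1.36, 1.30, 2.40, 1.82 and 0.991 TPM. In sublingual gland it was at 2.07, 1.49, 1.91, 1.45 and 1.43 TPM. The 10 parotid and submandibular libraries held 0.383 to 1.06 TPM, below 9 of the 10 pancreas and sublingual libraries, the exception being the pancreas of baboon 5. This separation is of unscaled TPM. Divided by the TMM scaling factors of the libraries, the groups overlapped. The factor was 0.4433 in submandibular gland of baboon 4 and 1.533 in sublingual gland of baboon 5. Liver exceeded pancreas by 4.28 in log2 units (SE 0.30, limma adjusted p = 4.79e-11) and the glands by 4.21 to 4.88. The lowest liver, that of baboon 5, was still above every other library.

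SLC25A15, the carrier that moves ornithine into mitochondria and citrulline out, was at 46.1, 54.4, 56.0, 59.0 and 33.4 TPM in liver. In pancreas it was at 2.59, 3.36, 3.06, 3.92 and 0.638 TPM. The glands held 0.405 to 2.61 TPM. The groups of liver and other libraries did not overlap, and liver exceeded pancreas by 3.84 in log2 units (SE 0.34, limma adjusted p = 3.23e-09). Against the glands the log2 fold change lay between 4.19 and 4.89.

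OTC, which makes citrulline, was at 108, 104, 96.1, 88.7 and 30.1 TPM in liver. In pancreas it was at 0.957, 1.03, 1.78, 1.20 and 0.289 TPM, and in the 15 gland libraries at 0.230 to 1.62 TPM. The 4 female livers lay close together and the male liver far below them, and with a single male, sex and animal cannot be told apart. The log2 fold change was 5.31 against pancreas (SE 0.31, limma adjusted p = 3.43e-12) and 5.36 to 5.71 against the glands. OTC and NAGS were the genes of the 8 with the lowest levels relative to liver in parotid and submandibular gland, at 0.595% to 0.684% of the liver mean.

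The cytosolic enzymes ASS1 and ASL were higher in liver as well, and were measured at several TPM or more in most other libraries. ASS1, which joins citrulline and aspartate, was the most abundant of the 8 genes in liver, at 637, 610, 922, 357 and 927 TPM. Pancreas held 17.1, 12.4, 19.2, 17.5 and 8.81 TPM, and sublingual gland 17.2, 8.68, 18.3, 16.0 and 24.2 TPM. Parotid was at 8.65 to 15.9 TPM and submandibular gland at 5.35 to 18.0 TPM. The 20 libraries outside the liver overlapped between tissues, and the lowest liver library was over 10 times their highest. The log2 fold change of ASS1 was 5.40 against pancreas (SE 0.40, limma adjusted p = 1.64e-10), 5.68 against parotid, 6.04 against submandibular gland and 5.26 against sublingual gland.

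ASL, which releases arginine, was at 102, 139, 165, 99.7 and 154 TPM in liver. In unscaled TPM pancreas was uniform, at 7.09, 7.30, 8.08, 6.18 and 7.57 TPM. The glands were not: parotid held 4.94, 15.0, 10.8, 4.39 and 12.7 TPM, submandibular gland 3.61, 25.1, 7.17, 3.59 and 10.1 TPM, and sublingual gland 21.4, 3.31, 10.6, 14.7 and 10.1 TPM. In both parotid and submandibular gland ASL was higher in baboons 2 and 5 than in the other 3 animals, and its highest gland value was in the submandibular library of baboon 2. These patterns are of unscaled TPM. In parotid the TMM factor was 2.468 and 2.628 in baboons 2 and 5 and 0.339 in baboon 4. Divided by the factors, ASL was lowest in baboons 2 and 5 in parotid and highest in baboon 3 in submandibular gland. The highest gland value was then in parotid of baboon 4, and submandibular gland spread about as widely as pancreas. The sum of the adipocyte markers ADIPOQ and PLIN1 was 1116 TPM in the parotid library of baboon 2, 119 and 571 TPM in the submandibular libraries of baboons 2 and 5, and at most 17.8 TPM in the other 22 libraries. The part of adipose tissue in the ASL values was not tested. Liver exceeded pancreas by 3.99 in log2 units (SE 0.48, limma adjusted p = 6.84e-07) and the glands by 3.51 to 3.90. As a percentage of its liver mean, ASL stood at 5.49% in pancreas and 7.24% to 9.10% in the glands. With TMM scaling that order turned, with 8.77% in pancreas, 7.72% in parotid, 8.14% in submandibular and 7.58% in sublingual gland.

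**Figure D2:**
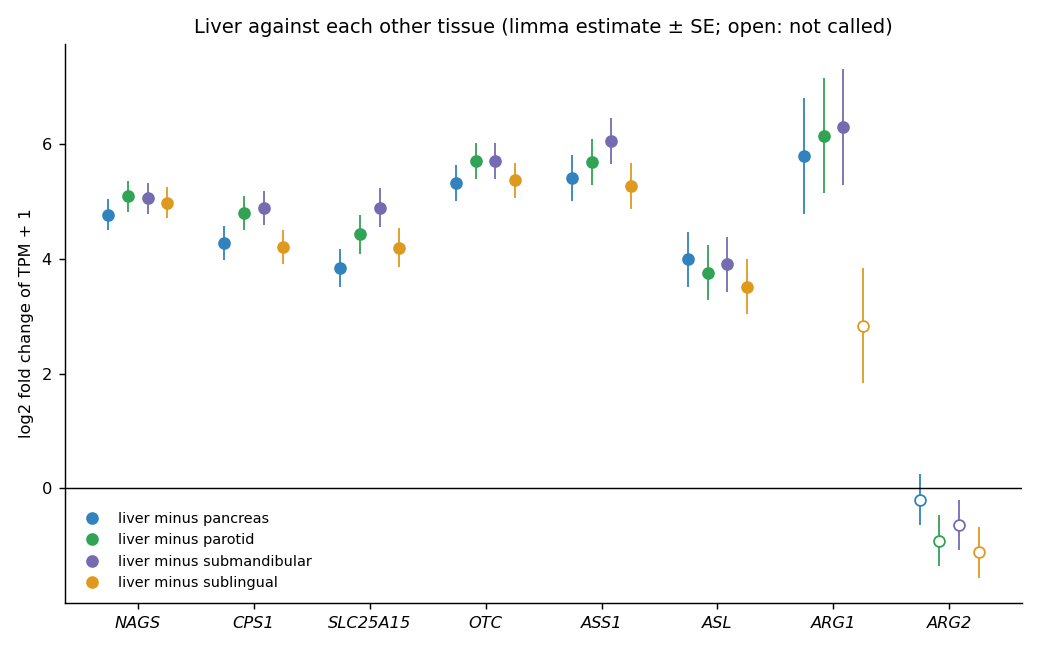
Limma log2 fold change (± SE) of each urea cycle gene in liver against pancreas, parotid, submandibular and sublingual gland, on the log2(TPM + 1) scale. Filled points were called and open points were not. The points of NAGS to ASL lie between 3.51 and 6.04, ARG1 against sublingual gland stands at 2.83 with a long error bar, and ARG2 lies below 0 in all 4 comparisons.

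ARG1, the arginase that yields urea, was high in liver and in 2 of the 5 sublingual libraries. It is known chiefly from hepatocytes, and also from granulocytes and the upper layers of stratified epithelium. In liver it was at 352, 396, 625, 327 and 230 TPM. In sublingual gland it was at 765, 5.04, 8.72, 948 and 7.53 TPM. The libraries of baboons 1 and 4 were 1.22 and 1.52 times the highest liver library and 2.18 and 2.90 times the liver of the same animal, whereas the other 3 resembled the remaining tissues. The 18 libraries outside the liver other than these 2 held 1.83 to 9.29 TPM, and the lowest liver was 24.8 times the highest of them.

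The liver minus sublingual difference of ARG1 was 2.83 in log2 units (SE 1.00, limma adjusted p = 0.0575), with liver higher in 3 of 5 animals, and was not called. Without the sublingual libraries of baboons 1 and 4 it was 5.71 (limma adjusted p = 1.8e-09). Without all libraries of baboon 1 it was 3.82 (adjusted p = 0.0181), and without those of baboon 4 it was 3.92 (adjusted p = 0.0121). The call was also gained with library scaling, at 2.94 with TMM (adjusted p = 0.0231) and 2.89 with the median of ratios (adjusted p = 0.026). With a floor of 5 TPM the adjusted p was 0.0481, and with a pseudocount of 0.1 it was 0.0488. The other 6 of 14 alternatives left it uncalled: no block for the animal, only the compared tissues in the fit, no filter on low values, and the omission of baboon 2, 3 or 5. With 1 animal left out the difference ran from 2.03, without baboon 2, to 3.92, with adjusted p up to 0.338, without baboon 3. Sublingual ARG1 exceeded pancreas by 2.95 (adjusted p = 0.0619), parotid by 3.31 (adjusted p = 0.21) and submandibular gland by 3.46 (adjusted p = 0.187), and none of these was called. The standard error of ARG1 was 1.00 in every comparison, against 0.27 to 0.48 for the other 7 genes, and without the 2 high libraries it was 0.45 for liver against sublingual gland.

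Against the other tissues ARG1 did differ beyond the spread. Pancreas held 2.92, 9.29, 7.71, 5.12 and 5.05 TPM, and liver exceeded it by 5.79 (SE 1.00, limma adjusted p = 0.000124). Parotid held 1.83 to 6.03 TPM and submandibular gland 2.42 to 7.40 TPM, with log2 fold changes of 6.14 and 6.29. No liver library overlapped these groups.

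The 2 sublingual libraries rich in ARG1 were the same 2 that were rich in KRT13 and KRT4. Their summed keratin level was 74570 and 17850 TPM, and the other 3 sublingual libraries held 52.5 to 335 TPM. Genes of cornified and oral epithelium chosen after their values were seen moved with them: SPRR3 was at 32570 and 29200 TPM, and CRNN at 3976 and 1622 TPM. Neither exceeded 273 TPM in any of the other 23 libraries. Of the 5 neutrophil markers used, S100A8 was at 17570 and 21920 TPM and S100A9 at 31560 and 44190 TPM, genes that epithelium also makes. CSF3R was at 0.141 and 0.0196 TPM, CAMP at 0.231 and 0.163 TPM, and MPO at 5.37 and 0.898 TPM in baboons 1 and 4. MPO was higher, at 49.6 TPM, in the sublingual library of baboon 3, where ARG1 was at 8.72 TPM. The macrophage markers CD68, CSF1R and CD163 summed to 29.1 and 15.5 TPM in the 2 libraries and to 4.36 to 8.95 TPM in the other 3. The hepatocyte markers summed to 620 and 759 TPM in the 2 libraries and to 390, 1227 and 522 TPM in the others. One of them, SERPINA1, was highest in these 2, at 241, 51.4, 146, 367 and 100.3 TPM in the sublingual glands of baboons 1 to 5. The part of epithelium in the ARG1 level was not tested.

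**Figure D3:**
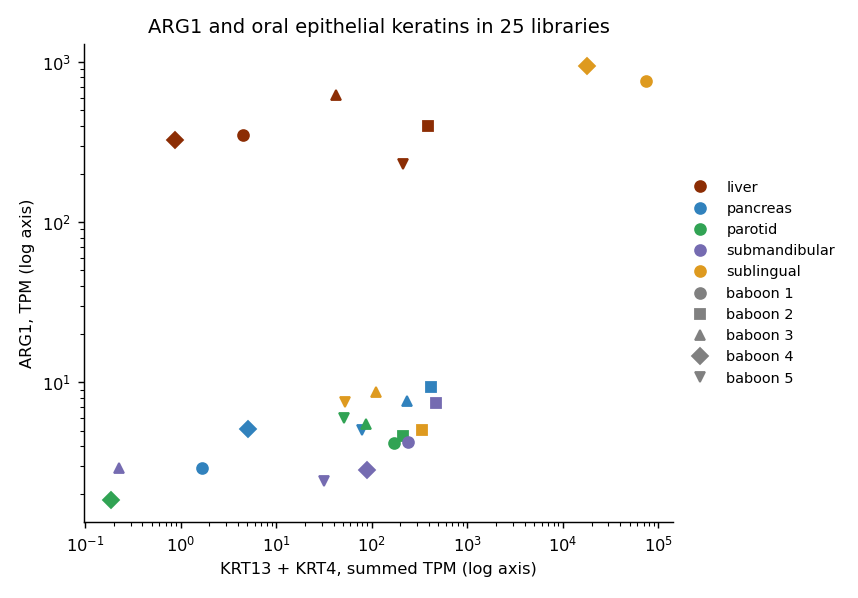
ARG1 (TPM, log axis) against the summed TPM of KRT13 and KRT4 (log axis) in the 25 libraries, coloured by tissue with a symbol for each baboon. The sublingual libraries of baboons 1 and 4 stand alone at the upper right. The 5 livers lie at 230 to 625 TPM of ARG1, spread over 0.868 to 391 TPM of the keratins. The other 18 libraries lie at 1.83 to 9.29 TPM of ARG1.

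ARG2, the mitochondrial arginase, was low in all tissues and was the only one of the 8 genes with its lowest mean in liver. In liver it was at 1.75, 1.56, 1.89, 2.03 and 4.12 TPM. Pancreas held 3.33, 2.73, 1.57, 5.14 and 1.45 TPM, and parotid 4.03, 5.29, 8.65, 5.39 and 2.78 TPM. Submandibular gland was at 4.63, 0.704, 6.16, 5.02 and 5.97 TPM and sublingual gland at 6.12, 2.07, 4.31, 5.69 and 18.3 TPM. Libraries of all tissues overlapped, and the highest unscaled value was in the sublingual gland of baboon 5, where the salivary acinar markers summed to 278800 TPM. Divided by the TMM factors, the highest ARG2 value was in parotid of baboon 4, where these markers summed to 947 TPM. The liver minus pancreas difference was -0.20 (SE 0.44, limma adjusted p = 0.835). Against parotid it was -0.91 (adjusted p = 0.194), against submandibular gland -0.64 (adjusted p = 0.371) and against sublingual gland -1.11 (adjusted p = 0.0899). Liver was below sublingual gland in 5 of 5 animals, and below parotid and below submandibular gland in 4 of 5. The sublingual difference was called when the 4 gland libraries low in AQP5 were left out, at -1.39 (adjusted p = 0.0411), and without baboon 2, at -1.33 (adjusted p = 0.0397).

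The balance of the arginases differed between the libraries. In liver ARG1 exceeded ARG2 in 5 of 5 libraries, and the log2 ratio of ARG2 to ARG1 (each TPM + 1) was -6.86 ± 0.85 (SD, n = 5). It was -0.88 ± 0.88 in pancreas, 0.19 ± 0.77 in parotid and 0.07 ± 1.37 in submandibular gland. In sublingual gland it was -6.75, -0.98, -0.87, -7.15 and 1.18, so the libraries of baboons 1 and 4 lay within the liver range and the other 3 outside it. ARG2 exceeded ARG1 in 10 of the 20 libraries outside the liver: 2 of pancreas, 3 of parotid, 4 of submandibular and 1 of sublingual gland.

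TPM is relative, so a few very abundant transcripts in a library lower all of its other genes. Scaling the libraries with TMM moved the median log2 fold change of all genes from 0.44 to 0.02 against pancreas, from 0.27 to -0.01 against submandibular gland, from -0.17 to -0.07 against sublingual gland and from -0.01 to -0.04 against parotid. Of the genes called, the share higher in liver went from 83.7% to 61% against pancreas, from 79.4% to 64.3% against parotid and from 84.2% to 61.3% against submandibular gland. The urea cycle genes moved with it and stayed called: against pancreas CPS1 was at 3.76, OTC at 4.86, ASS1 at 4.75, ASL at 3.35, NAGS at 4.37, SLC25A15 at 3.30 and ARG1 at 5.17, all above the scaled median of 0.02. ARG2 stayed below 0 in all 4 comparisons under TMM and under the median of ratios, between -0.66 and -1.20, and was called in none of them.

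Because each tissue other than liver also held low levels of hepatocyte genes, the members were set beside the 8 hepatocyte markers as a percentage of the liver mean. The markers ALB, APOA1, APOH, AHSG, FGB, FGA, TTR and SERPINA1 encode plasma proteins made by hepatocytes, and none was at 0 in any library. Their median in a library was 0.224% to 1.87% over the 20 libraries outside the liver, and single markers ran from 0.170% to 5.71%. OTC was at 0.617% to 1.23% of its liver mean in the 4 tissues, and it exceeded all 8 markers in 5 of the 20 libraries. NAGS was at 0.595% to 1.35% and exceeded all 8 markers in 4 of 20. These levels of OTC and NAGS were close to those of the hepatocyte markers, at a median ratio of 1.14 to the median marker for each. What part of them comes from liver RNA in the libraries was not tested.

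The other members stood higher against the same markers. CPS1 was at 3.12% in pancreas, 1.56% in parotid, 1.33% in submandibular and 3.30% in sublingual gland, and it exceeded all 8 markers in 17 of 20 libraries. SLC25A15 did so in 17 of 20, with 5.45% in pancreas, and ASS1 in 16 of 20, with 1.45% to 2.45% in the 4 tissues. ARG1 exceeded all 8 markers in 15 of 20 libraries, at 1.03% to 1.56% in pancreas, parotid and submandibular gland. ASL exceeded all 8 in 20 of 20 libraries, and its ratio to the median marker was 3.64 to 28.2. ARG2 exceeded them in 20 of 20 as well, with tissue means of 125%, 230%, 198% and 322% of its liver mean in pancreas, parotid, submandibular and sublingual gland. TMM scaling raised the pancreas percentages, for example to 5.04% for CPS1, 8.46% for SLC25A15 and 8.77% for ASL.

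**Figure D4:**
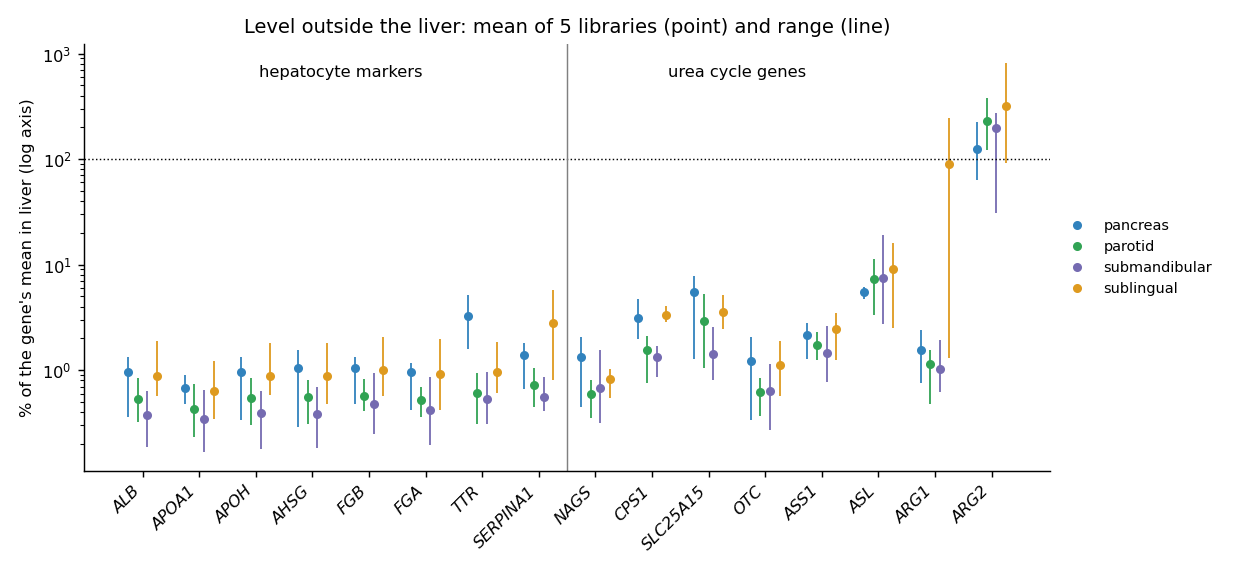
Level outside the liver as a percentage of each gene's liver mean (log axis) for the 8 hepatocyte markers and the 8 urea cycle genes. Points are means of 5 libraries and lines the range. OTC and NAGS lie at the height of the markers, ASL above them, ARG2 around and above 100%, and ARG1 in sublingual gland spans 1.31% to 245%.

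Between pancreas and the glands none of the 8 genes was called. Among all genes, 3.82% were called in either direction between pancreas and parotid, 4.08% between pancreas and submandibular gland and 9.47% between pancreas and sublingual gland. At an unadjusted p under 0.05 in limma the counts were 0 of 8 for parotid, 1 for submandibular gland (SLC25A15) and 2 for sublingual gland (ARG1 and ARG2). SLC25A15 was 2.07-fold higher in pancreas than in submandibular gland on the TPM + 1 scale, at 1.05 in log2 units (SE 0.34, adjusted p = 0.0957) and with pancreas higher in 5 of 5 animals. The pancreas libraries of baboons 1 to 4, at 2.59 to 3.92 TPM, lay above all submandibular libraries, which ran from 0.405 to 1.28 TPM, and the pancreas of baboon 5, at 0.638 TPM, lay among them. The call was gained with TMM scaling at 1.23 (adjusted p = 0.000319), with the median of ratios at 1.24 (adjusted p = 0.000274), and with a pseudocount of 0.1 at 1.68 (adjusted p = 0.0457). It was also gained without baboon 5 at 1.31 (adjusted p = 0.0273), and at 1.05 without the gland libraries low in AQP5 (adjusted p = 0.0227).

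Among the 3 glands none of the 8 was called either, where 0% of all genes were called between parotid and submandibular gland (254 genes had an unadjusted limma p under 0.05), 0.113% between parotid and sublingual gland and 0.0667% between submandibular and sublingual gland. At an unadjusted p under 0.05 in limma the counts were 0 of 8, 1 of 8 (ARG1) and 3 of 8 (CPS1, ARG1 and SLC25A15). CPS1 was lower in submandibular than in sublingual gland in 5 of 5 animals (-0.68 on the log2 scale, SE 0.30, adjusted p = 0.328), and so was SLC25A15 (-0.70, SE 0.34, adjusted p = 0.355). These counts of animals are of unscaled TPM. Divided by the TMM factors, CPS1 in baboon 4 and SLC25A15 in baboon 1 went the other way. Without the libraries of baboon 2, ARG1 was called higher in sublingual gland than in parotid (4.11 on the log2 scale, adjusted p = 0.048, with 2 of the remaining 4 sublingual libraries high), than in submandibular gland (4.44, adjusted p = 0.0272) and than in pancreas (3.89, adjusted p = 0.0194).

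The order of the tissues below liver was read from mean TPM without scaling and rests on that choice. CPS1 and ASS1 ran liver, sublingual gland, pancreas, parotid and submandibular gland. OTC and NAGS ran liver, pancreas, sublingual, submandibular and parotid gland, and SLC25A15 liver, pancreas, sublingual, parotid and submandibular gland. ASL ran liver, sublingual, submandibular, parotid and pancreas. With TMM scaling pancreas came next after liver for all 6 of these genes, for example at 5.04% of the liver mean for CPS1 against 3.08% in sublingual gland, and at 3.40% for ASS1 against 2.47% in parotid. Without scaling the step from liver to the next tissue was called for each of the 6, NAGS being tested only through its liver level, and no later step was, with the later steps at most 0.52 on the log2 scale. ARG1 ran liver, sublingual, pancreas, parotid and submandibular gland, and ARG2 sublingual, parotid, submandibular, pancreas and liver, with no step between neighbours called for either.

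Within liver the 8 genes covered a wide range of levels. By mean TPM, ASS1 ranked 159 of 21287 genes at 691 ± 240 TPM, and ARG1 ranked 289 at 386 ± 147 TPM (SD, n = 5). ASL followed at 132 ± 29.9 TPM and OTC at 85.5 ± 31.9 TPM. CPS1, SLC25A15 and NAGS were close together, at 50.5 ± 16.9, 49.8 ± 10.3 and 43.4 ± 14.1 TPM, and ranked 1557, 1570 and 1728. ARG2 ranked 9435 at 2.27 ± 1.05 TPM. The cytosolic enzymes that follow citrulline were thus the more abundant transcripts, ASS1 being 13.7 times CPS1 and 8.08 times OTC by their means.

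The livers of the 5 animals did not rank alike over the genes. Baboon 5 was lowest for CPS1, OTC, ARG1 and SLC25A15 and highest for ASS1 and ARG2. Its OTC level was 0.304 of the mean of the other 4 livers, CPS1 0.486, ARG1 0.542 and SLC25A15 0.621, whereas ASS1 was 1.47 and ARG2 2.28 times that mean and NAGS was at 1.01. Baboon 4 was lowest for ASS1 and ASL and highest for NAGS and SLC25A15. Baboon 3 was lowest for NAGS and highest for ASL and ARG1. The coefficient of variation over the 5 livers was 20.7% for SLC25A15, 22.6% for ASL, 32.5% to 38.0% for NAGS, CPS1, ASS1, OTC and ARG1, and 46.3% for ARG2. The median over the 8 genes was 34.1%, against 30.0% over the genes with at least 1 TPM in liver.

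The liver of baboon 5 also held less of most hepatocyte markers. It was the lowest of the 5 livers for 7 of 8 markers, with ALB at 14280 TPM against 31060 to 38460 TPM, and the highest for APOA1. Of the 11796 genes averaging 1 TPM or more in liver, 43.2% had their lowest value in this library, so a lowest place in baboon 5 was common. The periportal genes HAL and PCK1 were at 0.260 and 0.156 of the mean of the other 4 livers there, and the periportal gene GLS2 at 0.883. SDS, the other periportal gene listed, was at 1.11 there and lowest in baboon 4, so the 4 genes did not move alike. Perivenous GLUL, the glutamine synthetase, was at 0.625. The part of the sampled zone, the tissue's state or the library in these values was not tested. Without baboon 5 the liver means were 99.3 ± 8.73 TPM for OTC and 56.3 ± 12.5 TPM for CPS1 (SD, n = 4), and the counts of genes called against each tissue were the same.

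**Figure D5:**
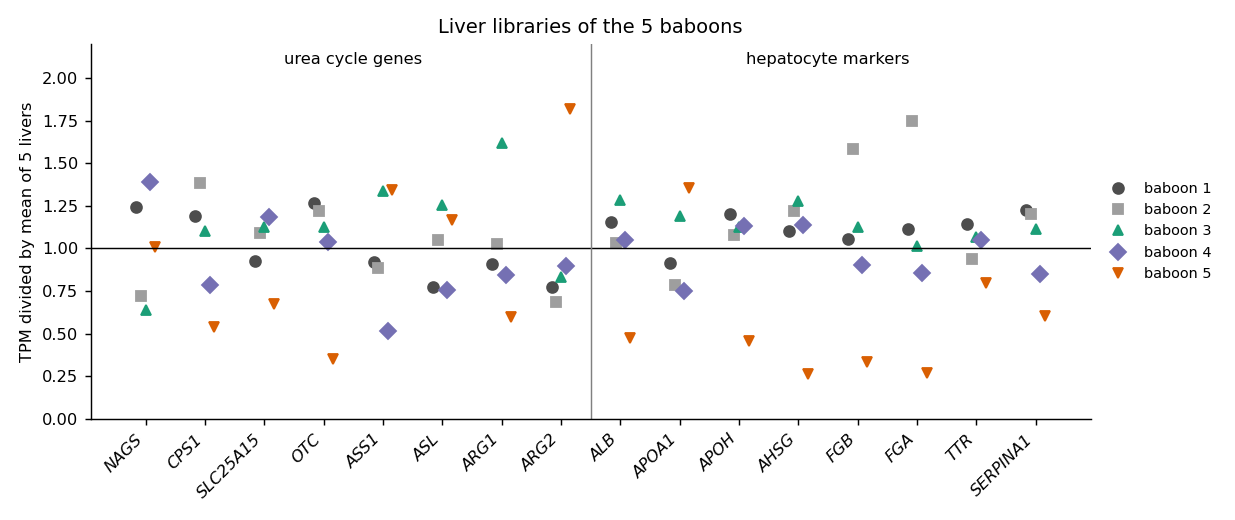
TPM of each liver library divided by the mean of the 5 livers, for the 8 urea cycle genes and the 8 hepatocyte markers, with a symbol for each baboon. Baboon 5 is lowest for 4 of the 8 urea cycle genes and 7 of the 8 markers, and highest for ASS1, ARG2 and APOA1.

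Ratios within a library do not move with its scaling, apart from the pseudocount of 1 TPM. In liver the log2 ratio of ASS1 to CPS1 was 3.38, 3.11, 4.03, 3.14 and 5.03 in baboons 1 to 5, and that of ASL to OTC was -0.08, 0.41, 0.78, 0.17 and 2.32. Baboon 5 was the highest for both. The ratio of NAGS to CPS1 in liver was -0.15, -1.14, -0.98, 0.59 and 0.66, and it was above 0 in baboons 4 and 5 only. Outside the liver ASL exceeded OTC in all 20 libraries, with mean log2 ratios of 2.05 to 2.67, and CPS1 exceeded NAGS in all 20. With a pseudocount of 0.1 the ratios outside the liver moved further from 0, for example from 2.05 to 2.84 for ASL to OTC in pancreas, so their size depends on that choice.

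Genes that feed or use the cycle were read from the same fit. Of 33 symbols listed from knowledge of the pathway, 30 were used, the others are not analysed here, and 26 passed the filter, 3 of them (CA5A, GAMT and SLC7A2) through their liver level alone. Called higher in liver were 13 of these 26 against pancreas, 12 against parotid, 11 against submandibular gland and 11 against sublingual gland, beside 14.6%, 10.9%, 13.9% and 9.52% of all genes. Called lower in liver were 2, 2, 1 and 3 of the 26, beside 2.86%, 2.84%, 2.61% and 5.93% of all genes. The median log2 fold change of the 26 was 1.38, 1.02, 0.86 and 0.76 in the same order, against 0.44, -0.01, 0.27 and -0.17 over all genes. Of the 9 tested genes that supply nitrogen and bicarbonate, 7, 6, 5 and 5 were called higher in liver. Of the 10 genes tested for the use of arginine, ornithine and proline, 4 were called higher in liver in each comparison. So was 1 of 3 genes of ammonia and glutamine handling. The 1 of 4 transporters called higher in each was SLC7A2, admitted by its liver level alone, so its call is a description. CA5A, in the nitrogen and bicarbonate counts, was admitted in the same way. Both genes are also in the 13, 12, 11 and 11 above.

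CA5A, the mitochondrial carbonic anhydrase that supplies bicarbonate to CPS1, was at 21.0, 33.4, 16.8, 26.8 and 14.5 TPM in liver and below 1 TPM in all 20 other libraries. It passed the filter through liver alone and so had to differ. Its log2 fold changes of 4.10 to 4.33 are a description. GLS2, the liver glutaminase, was at 68.1 to 102 TPM in liver and at 0.765 to 8.30 TPM elsewhere, with log2 fold changes of 3.82 to 4.85. AGMAT, named for agmatine hydrolysis, was at 91.9, 90.4, 90.0, 106 and 40.8 TPM in liver. It was at most 2.54 TPM elsewhere, except for 16.9 TPM in the sublingual library of baboon 2. ALDH4A1, of mitochondrial proline breakdown, was at 31.6 to 82.5 TPM in liver and higher by 3.94, 4.31 and 4.21 than in pancreas, parotid and submandibular gland. For AGMAT, CA5A and ALDH4A1 the liver of baboon 5 was again the lowest.

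PYCR1, of proline synthesis, went the other way. It was at 4.33, 4.15, 5.64, 7.76 and 5.20 TPM in liver and at 54.9, 62.7, 50.1, 53.6 and 44.5 TPM in pancreas, with no overlap. The log2 fold change was -3.10 against pancreas (SE 0.55, limma adjusted p = 0.000173), -2.54 against parotid and -2.34 against submandibular gland. Against sublingual gland PYCR1 was at -1.51 (adjusted p = 0.0666) and was not called. SLC25A12, an aspartate-glutamate carrier, was lower in liver than in sublingual gland (-2.12, adjusted p = 0.000192). RHCG, an ammonia channel of epithelia, was lower in liver than in sublingual gland as well (-3.84, adjusted p = 0.0322), at 1572 and 315 TPM in the keratin-rich libraries of baboons 1 and 4 and 1.25 to 7.73 TPM in the other 3. Without these 2 libraries the RHCG difference was -0.54 (adjusted p = 0.72), and it was not called without any 1 of baboons 1, 3 and 4 either (adjusted p = 0.274, 0.0523 and 0.23).

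GATM, which makes guanidinoacetate from arginine and glycine for creatine synthesis, was high in both pancreas and liver. It was at 716, 195, 344, 554 and 101 TPM in pancreas and at 901, 271, 193, 339 and 81.8 TPM in liver. The glands held 7.29 to 100.1 TPM, the highest in the sublingual gland of baboon 5. Pancreas exceeded parotid by 4.14, submandibular gland by 3.64 and sublingual gland by 3.49 on the log2 scale (limma adjusted p = 0.00021, 0.000969 and 0.00152). Liver exceeded sublingual gland by 3.28 (adjusted p = 0.000901). In both organs GATM was highest in baboon 1 and lowest in baboon 5.

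OAT, which converts ornithine to glutamate semialdehyde, was low in pancreas, at 5.45 to 9.16 TPM. In the glands it was at 7.41 to 213 TPM, and only the sublingual library of baboon 2 lay within the pancreas range. Pancreas was lower than parotid by 2.85 on the log2 scale (adjusted p = 0.00589) and lower than submandibular gland by 2.82 (adjusted p = 0.00653). Against sublingual gland the difference of OAT was -2.51 (adjusted p = 0.0137), and it was not called without the sublingual libraries of baboons 1 and 4 (-2.50, adjusted p = 0.0685) or with TMM scaling (-1.75, adjusted p = 0.0864). The pancreas differences of OAT were also not called without baboon 1, 3 or 4, with adjusted p up to 0.111. SLC25A29, a mitochondrial carrier of basic amino acids, was lower in pancreas than in parotid (-2.36, adjusted p = 0.0119), with parotid libraries at 11.9 to 199 TPM, and was not called with TMM scaling (-1.98, adjusted p = 0.0996) or without baboon 1, 3 or 4 (adjusted p up to 0.137).

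The aspartate aminotransferases GOT1 and GOT2 and SLC25A12 were called lower in pancreas than in sublingual gland (-1.65, -1.65 and -2.28, limma adjusted p = 0.019, 0.0305 and 0.00029). The sublingual library of baboon 2, rich in skeletal muscle genes, was the highest for all of them, with 149 TPM of GOT1, 154 TPM of GOT2 and 40.5 TPM of SLC25A12. The other 4 sublingual libraries held 16.7 to 40.6, 6.76 to 21.1 and 4.59 to 6.78 TPM. Without baboon 2 SLC25A12 was at -1.79 (adjusted p = 0.00104), GOT1 at -1.28 (adjusted p = 0.0185) and GOT2 at -1.04 (adjusted p = 0.0724). With TMM scaling GOT1 was at -0.90 (adjusted p = 0.347) and GOT2 at -0.93 (adjusted p = 0.237). Neither was called without baboon 1, 3 or 5, with adjusted p of 0.0579 to 0.148. Of the 26 connected genes, 1 was called higher in pancreas than in each gland, beside 2.40%, 2.81% and 2.49% of all genes for parotid, submandibular and sublingual gland. Called lower in pancreas were 3, 1 and 5 of the 26, beside 1.41%, 1.27% and 6.97% of all genes. None was called between glands.

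Likeness was measured as Pearson's r of log2(TPM + 1) over the 25 libraries, which share tissues and animals, with each member compared with 6154 genes. The values describe a liver against other tissue pattern and carry no test. CPS1 was closest to PON1 (0.996), BHMT2 (0.995) and UROC1 (0.993), and OTC to APOB (0.998), ALDH8A1 (0.997) and TMPRSS6 (0.997). NAGS was closest to HGFAC (0.994), SLCO1B3 (0.994) and PRODH2 (0.993), and SLC25A15 to APOH (0.989), AMBP (0.987) and HRG (0.987). ASS1 was closest to HPD (0.985), SLC27A5 (0.984) and FTCD (0.983). The nearest genes to ASL had lower values, at 0.966 for TREH, 0.965 for HDHD3 and 0.963 for HAAO.

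The arginases stood apart from the rest in this measure. The nearest genes to ARG1 were IL1R2 (0.964), GCHFR (0.946) and UGT1A6 (0.935), and each of them was raised in the same 2 sublingual libraries. IL1R2, a decoy receptor for interleukin 1, held 32.5 TPM in sublingual gland of baboon 1 and 51.9 TPM in that of baboon 4, against a liver mean of 70.8 TPM. GCHFR was at 324 and 495 TPM in them, against a liver mean of 331 TPM. ARG2 was nearest to EHF (0.810), BACE2 (0.806) and ENTPD3 (0.785), all with their lowest mean in liver and their highest in sublingual gland, EHF being an epithelial transcription factor. Among the members, CPS1 and OTC were the closest pair (0.993), the pairs without an arginase ran from 0.908 to 0.993, ARG1 with the other 6 non-ARG2 members from 0.719 to 0.810, and ARG2 with the other 7 from -0.211 to -0.435.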

How the data were processed

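The authors deposited 1 table of TPM per gene for 25 libraries, kallisto abundances by its name and per the submitters' processing notes. The kallisto version, index, genome build and annotation are not given in the sources used here, so no coordinates are given, and near-identical gene copies were divided by the quantification. Libraries summed to 999999.5 to 1000000.6 TPM. TPM keeps no depth, so no interval for counting error is given. Libraries were assigned to tissue and animal by the sample titles, and all were used. All 21287 symbols matched the RefSeq gene table of Panubis1.0, used for names only.

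The model was fitted in R 4.3.3 with limma 3.58.1 (lmFit, contrasts.fit, eBayes with a trend) on log2(TPM + 1), which understates the change of low genes. Tissue and animal were terms, over all 25 libraries and the 14991 genes averaging 1 TPM or more in a tissue, and p-values were adjusted over all genes within each of 10 comparisons. The script was tested on simulated data. The branch of the plan for counts did not apply to TPM. The numbers in the titles are animals, so libraries with the same number are paired. Their deviations from the tissue means correlated at 0.161 over 50 same-animal pairs and at -0.035 over 200 pairs of different animals. Descriptions used Python 3.11.15, pandas 2.3.3, numpy 2.4.6 and matplotlib 3.10.9.

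The members and lists were chosen with earlier results of these data known. Named were all members, from the connected list up to 4 called genes per direction with at least 10 TPM in the higher tissue in each comparison of liver or pancreas, and the 3 genes most like each member. GLUL, HAL and PCK1 are from the list of hepatocyte zone markers, where CYP2E1 and CYP1A2 were not used, and FCGR3B was not used as a neutrophil marker. The alternatives fitted the 2 tissues of a comparison alone, dropped the replicate block, scaled libraries by TMM or by the median of ratios, used no filter or a floor of 5 TPM, set the pseudocount to 0.1 and left out each animal in turn. Chosen after seeing the data were leaving out the sublingual libraries of baboons 1 and 4, and the 4 gland libraries low in AQP5.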

Additional observations from a re-analysis of the deposited data

Results flagged for a closer look

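In 5 of the 40 groups of 5 libraries (8 genes in 5 tissues), 1 library lay far enough from the others for Dixon's test at the 95% level, which chance reaches in about 1 in 20 groups. In liver these were OTC, lowest in baboon 5 at 30.15 TPM, and ARG2, highest in baboon 5 at 4.123 TPM. In submandibular gland they were ARG2, lowest in baboon 2 at 0.7041 TPM, and NAGS, highest in baboon 2 at 0.6733 TPM. These are unscaled values, and NAGS was below 1 TPM in all submandibular libraries. The TMM factor of this library was 2.633, against 0.4433 to 1.135 for the others of submandibular gland. Divided by these factors, NAGS in baboon 2 lay within the range of the others, and ARG2 stayed lowest there. In sublingual gland ARG2 was highest in baboon 5 at 18.3 TPM. The ARG1 values of 765 and 948 TPM in sublingual gland do not meet this criterion, because 2 libraries share the high level.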

How the results depend on the processing

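The 7, 7 and 7 urea cycle genes called higher in liver than pancreas, parotid and submandibular gland, and the 6 to 7 called against sublingual gland, were counted under all 14 alternatives. The filter was applied anew in each. With the floor of 5 TPM, NAGS, CPS1, OTC and SLC25A15 passed through liver alone, and without baboon 3 OTC did. In fits of 2 tissues so did NAGS always, OTC against each gland, CPS1 against parotid and submandibular gland, and SLC25A15 against submandibular gland. Those calls are a description. The fit without the replicate block, which ignores that libraries are paired by animal, called 7, 7, 7 and 6 and changed no call of these 8 genes. Of the connected genes named, GOT2 between pancreas and sublingual gland was lost without it (-1.65, limma adjusted p = 0.0763). The only reversed sign was ARG2 in liver minus pancreas, at -0.20 with all animals and 0.009 without baboon 4 (-0.512 to 0.009 with an animal left out). Counts of urea cycle genes that were 0 became 1 as follows: higher in pancreas than submandibular gland with TMM, median of ratios, a pseudocount of 0.1 or no AQP5-low libraries (0 to 1 when animals were left out); higher in sublingual gland than pancreas with a pseudocount of 0.1 or no AQP5-low libraries (0 to 1); and higher in sublingual gland than liver without AQP5-low libraries (0 to 1). Leaving out animals also gave 0 to 1 for sublingual gland over parotid and over submandibular gland. Connected genes called between pancreas and submandibular gland were 2, then 5 with TMM, 5 with the median of ratios, 4 with a pseudocount of 0.1, 5 without AQP5-low libraries and 1 to 3 with an animal left out. Between pancreas and parotid they were 4 (1 to 4 with an animal left out), between pancreas and sublingual gland 6 (2 to 6), between submandibular and sublingual gland 0 (0 to 2), and between parotid and sublingual gland 0, or 1 without AQP5-low libraries.

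Over all genes, the counts called also depended on the setting: 2623 for liver against pancreas (1722 to 4313), 2064 for parotid (1335 to 3336), 2474 for submandibular gland (1535 to 3567) and 2316 for sublingual gland (1543 to 3319). For pancreas they were 572 against parotid (315 to 1255), 611 against submandibular gland (326 to 1320) and 1419 against sublingual gland (393 to 4132). Between glands they were 0 (0 to 11), 17 (0 to 489) and 10 (0 to 2627, the highest without baboon 2). The causes were not tested. With TMM, 61.2% of the genes called between pancreas and sublingual gland were higher in pancreas, against 26.4% without scaling.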
